A study of Mus musculus with 12 samples.

Results

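The genes described here are the 3 eIF4E-binding proteins (Eif4ebp1, Eif4ebp2 and Eif4ebp3), Deptor, the 3 sestrins (Sesn1, Sesn2 and Sesn3) and Ddit4, which encodes REDD1. They were taken by gene symbol from 12 RNA sequencing libraries of primary mouse hepatocytes, and they are 8 of the 22471 features that each library lists. All 8 were found, each as 1 protein-coding gene, and all 8 passed the filter on low counts in every comparison. They were chosen by their measured levels across the 4 groups as well as by what they do, with oleic acid against control in view in particular, so that comparison is given below as a description with no p-value. BBR against control and BBR+OA against OA each share 3 libraries with it. BBR+OA against BBR shares no library with it but measures oleic acid again, so its p-values are not independent of the choice. The interaction of both compounds contains OA against control and is likewise given with no p-value. All results were known when the genes were chosen.

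All 8 proteins act on or around mTORC1, the kinase complex that couples amino acids, growth factors and energy to protein synthesis. The eIF4E-binding proteins hold the cap-binding factor eIF4E away from its partner eIF4G until mTORC1 phosphorylates them, and so restrain cap-dependent translation. Deptor binds mTOR and inhibits it. The sestrins are stress-induced proteins that act on GATOR2, with Sesn1 and Sesn2 known as leucine sensors, and so keep the Rag GTPases from recruiting mTORC1 to the lysosome. REDD1, the product of Ddit4, inhibits mTORC1 through the TSC complex, which switches off the GTPase Rheb, and its gene is a well known target of hypoxia, glucocorticoids and endoplasmic reticulum stress. Several of these genes are textbook targets of the transcription factors ATF4, p53 or FoxO.

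Hepatocytes from male C57BL/6J mice were kept in culture under 4 conditions, with 3 libraries each. Control cells received no test compound, OA cells received oleic acid (a fatty acid that fills hepatocytes with neutral lipid), BBR cells received benzbromarone (a uricosuric drug with known liver toxicity) and BBR+OA cells received both. Each compound was used at 1 dose and 1 time, no genetic change was made in any group, and the labels do not say whether the 3 libraries of a group came from separate animals or from separate wells, so that p-values cover only the spread between these libraries. The comparisons share libraries: control serves both OA and BBR, and each treated group serves 2 comparisons.

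Library totals ran from 15485508 to 23668379 estimated counts, so that 1 count was worth 0.0423 to 0.0646 CPM (a count as a share of its library, in the usual unit of read depth). CPM values below are scaled by edgeR's trimmed mean of M values over all 12 libraries. The summed level of 10 hepatocyte markers was 43270 to 51190 CPM over the 12 libraries, against 102 to 184 CPM for 10 Kupffer cell markers, 49.7 to 66 CPM for 8 endothelial markers, 24.7 to 31.5 CPM for 8 stellate cell markers and 213 to 739 CPM for 6 biliary markers. None of these markers was at 0 in all 12 libraries, but Krt7, a biliary marker, was at 0 in every control library. The Kupffer sum was 141 to 184 CPM in BBR libraries and 102 to 119 CPM in the other 9, and that difference lay in 1 marker, Cd68 (106 to 149.5 CPM in BBR and 66.9 to 88.8 CPM in control libraries): the other 9 markers summed to 27.3 to 35.2 CPM in BBR and 29.8 to 36 CPM in control, where Cd5l was called lower and none was called higher. The sum hides opposite shifts with oleic acid. In OA against control, 2 of the 10 Kupffer markers were called higher (Marco and Adgre1, log2 fold changes 2.51 and 1.41) and 6 lower (Clec4f the lowest, -1.28). Over all genes tested there, 21.3% were called higher and 21.5% lower. In BBR+OA against BBR, 2 of the 10 were called higher and 3 lower. The biliary sum was 607 to 739 CPM in control, 405 to 435 CPM in BBR, 257 to 287 CPM in OA and 213 to 253 CPM in BBR+OA libraries, and that difference lay in Spp1 (552 to 680.1 CPM in control, 143 to 362 CPM in the treated groups). The other 5 biliary markers summed to 54.5 to 59.9 CPM in control and 62.5 to 84.2 CPM in the treated groups, and with benzbromarone alone Krt19, Epcam and Sox9 were called higher and Spp1 was called lower. The hepatocyte sum was mostly Alb (27130 to 34440 CPM). Of its 10 markers, 6 were called higher and 1 lower in OA against control. In BBR+OA against BBR, 5 were higher and 2 lower (20.1% and 18.8% over all genes). Cps1 rose by 3.32 and 4.29 on the log2 scale. Benzbromarone alone called 2 higher and 5 lower (13.2% and 14.5% over all genes), with Cps1 at -0.855. Of the 8 endothelial markers it called 3 higher and 0 lower. The part of these shifts in the results below was not tested. In whole cultures, fewer cells of a type and less RNA per cell cannot be told apart.

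Adding oleic acid to benzbromarone-treated cells moved most of the 8 genes. In BBR+OA against BBR, 7 of the 8 passed the test, 5 of them higher (Eif4ebp1, Eif4ebp2, Eif4ebp3, Deptor and Sesn2) and 2 lower (Sesn3 and Ddit4), where 38.9% of the 12416 genes tested were called (20.1% higher and 18.8% lower). The values of this comparison were known when the genes were chosen, so that the count of 7 is a description. The median log2 fold change was 0.16 over the 8 genes and -0.00605 over all genes tested. Benzbromarone alone moved 3 of the 8, with Ddit4 and Eif4ebp1 higher and Deptor lower, where 27.7% of 12555 genes were called (13.2% higher and 14.5% lower). In oleic acid-loaded cells benzbromarone moved 1 of the 8, Sesn3, which was higher, where 4.59% of 12278 genes were called (1.95% higher and 2.63% lower); with 1 library left out, 216 to 632 genes were called there in place of 563, and Sesn3 was the 1 member called each time. The interaction is the effect of benzbromarone with oleic acid less its effect without, and 12.2% of 12742 genes were called for it (6.87% positive and 5.31% negative). The interaction contains the OA against control difference that was in view when the genes were chosen, so that no calls of the 8 genes are given for it. A call here means an adjusted p under 0.05 by the quasi-likelihood method of edgeR, with p-values adjusted after Benjamini and Hochberg over all genes tested. In OA against control the libraries of both groups did not overlap for 6 of the 8 genes (4 higher, 2 lower), where 52.2% of the 12418 genes tested did not overlap (25.2% higher and 27% lower) and 42.8% were called.

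**Figure D1:**
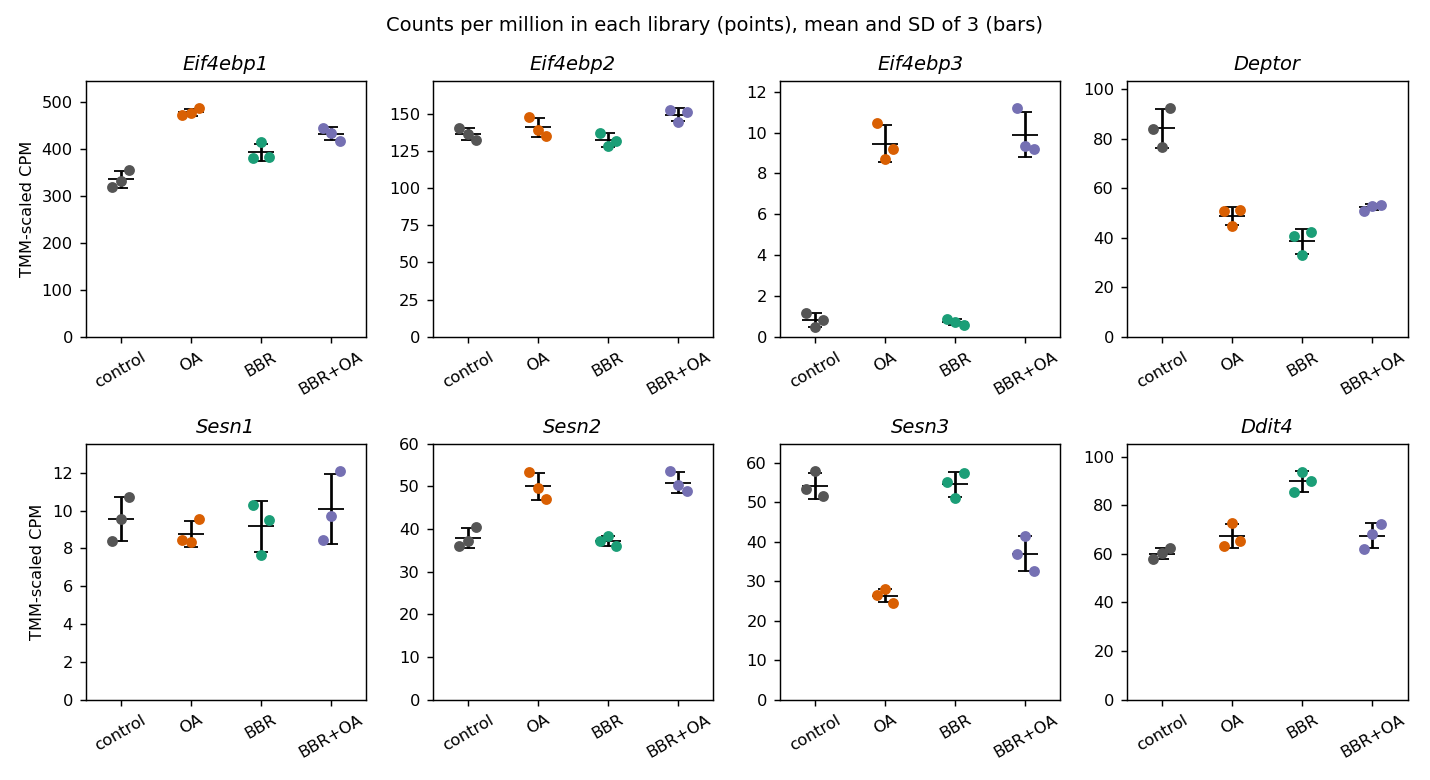
Trimmed-mean-scaled CPM (y axis, from 0, scale differs between panels) of the 8 genes in control, OA, BBR and BBR+OA hepatocytes; points are the 3 libraries of a group, and bars give the mean and SD. Eif4ebp3 stood near 1 CPM in control and BBR libraries and at 8.71 to 11.2 CPM in OA and BBR+OA libraries, Deptor was highest in control, Ddit4 was highest in BBR, and Sesn1 overlapped between all groups.

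Among the eIF4E-binding proteins, Eif4ebp3 had by far the largest difference with oleic acid. Its gene lies on chromosome 18, plus strand, and its library values were 1.15, 0.477 and 0.842 CPM in control and 0.874, 0.708 and 0.592 CPM in BBR. In OA libraries they were 10.5, 8.71 and 9.19 CPM, and in BBR+OA libraries 11.2, 9.35 and 9.17 CPM. Every library with oleic acid was above every library without it, and within each of those sets the groups with and without benzbromarone overlapped. The fitted log2 fold change was 3.52 ± 0.21 (SE, 3 against 3 libraries) for OA against control, an 11.5-fold difference. For BBR+OA against BBR it was 3.74 ± 0.19, 13.4-fold (edgeR adjusted p = 3.33e-09), the 11th highest of 12416 genes. That comparison measures oleic acid again, so this p-value and rank are not independent of the choice of the gene. Benzbromarone gave a log2 fold change of -0.16 ± 0.36 without oleic acid (edgeR adjusted p = 0.787, 95% interval -0.87 to 0.55) and 0.068 ± 0.12 with it (edgeR adjusted p = 0.801, interval -0.16 to 0.29). The intervals are narrow with oleic acid and wide without it, where the gene was near the low end of what these libraries could measure.

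Reads of Eif4ebp3 can belong to other transcripts. In the GENCODE annotation its exons overlap those of AC115631.1, a same-strand gene that starts inside the upstream neighbour Ankhd1, and both Eif4ebp3 and Ankhd1 had fractional estimated counts in all 12 libraries, so that reads were divided between features. Ankhd1, an ankyrin repeat protein, stood at 79.3, 86.4 and 76 CPM in control, 71.2, 75.9 and 67.1 CPM in OA, 88.6, 87 and 95.9 CPM in BBR and 75.7, 73.7 and 71.1 CPM in BBR+OA libraries. Its log2 fold change in BBR+OA against BBR was -0.30 ± 0.049 (edgeR adjusted p = 0.000234), of opposite sign to that of Eif4ebp3.

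Eif4ebp1, the most studied of the 3 binding proteins (chromosome 8, 27260329 to 27276674, plus strand, GRCm38), was the most abundant member. It stood at 319.7, 331 and 354 CPM in control, 472, 476 and 486 CPM in OA, 382, 414 and 382 CPM in BBR and 444.5, 435 and 417 CPM in BBR+OA libraries. The 4 groups did not overlap, with control lowest, then BBR, then BBR+OA, and OA highest. The log2 fold change was 0.52 ± 0.051 for OA against control. Benzbromarone alone raised it by 0.24 ± 0.052 on the log2 scale (edgeR adjusted p = 0.00278). In oleic acid-loaded cells the log2 fold change was -0.15 ± 0.045 and did not pass the test (edgeR adjusted p = 0.0749), a result that depended on the processing. The interaction was -0.37 ± 0.068. The rise in BBR+OA against BBR was small, 0.14 ± 0.045 (edgeR adjusted p = 0.0272), and the call was lost under upper-quartile scaling (log2 fold change 0.095, adjusted p = 0.114) and without BBR library 1 or 3 or BBR+OA library 1 or 2, with adjusted p of 0.0795 to 0.101.

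Eif4ebp2 (chromosome 10, 61428491 to 61452661, minus strand) moved little. Its values were 140.5, 137 and 132 CPM in control, 148, 139 and 135 CPM in OA, 137, 128 and 132 CPM in BBR and 152, 145 and 151 CPM in BBR+OA libraries. Only BBR+OA and BBR did not overlap among the 4 pairs of groups compared, and that difference passed the test with a log2 fold change of 0.17 ± 0.043 (edgeR adjusted p = 0.0057). OA against control gave 0.053 ± 0.051, and the benzbromarone comparisons gave -0.036 ± 0.046 without and 0.082 ± 0.05 with oleic acid (edgeR adjusted p = 0.617 and 0.406).

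Deptor (chromosome 15, 55112317 to 55259271, plus strand), the mTOR inhibitor, was highest in untreated cells and lower in every treated group. Control libraries held 84.1, 76.6 and 92.3 CPM, OA libraries 50.9, 44.7 and 51.1 CPM, BBR libraries 40.6, 32.9 and 42.6 CPM and BBR+OA libraries 50.9, 52.8 and 53.4 CPM. No treated library reached the lowest control library, and in CPM the BBR libraries lay below those of OA and of BBR+OA. In deposited FPKM, which divide by transcript length, BBR libraries (5.43 to 6.17) overlapped OA libraries (6.14 to 7.35). They lay below BBR+OA libraries (6.2 to 7.63). Benzbromarone alone lowered Deptor 2.16-fold, a log2 fold change of -1.11 ± 0.082 (edgeR adjusted p = 9.61e-08), the 107th lowest of 12555 genes. OA against control gave -0.78 ± 0.073. With both compounds the level was not lower than with either alone: BBR+OA against BBR was 0.43 ± 0.076 (edgeR adjusted p = 0.000439), and BBR+OA against OA was 0.096 ± 0.062 (edgeR adjusted p = 0.443, 95% interval -0.025 to 0.22). The interaction was 1.22 ± 0.12. Deptor counts were fractional in 4 libraries, and Gm9920, an antisense gene over its exons, was at or under 0.255 CPM in every library.

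The sestrins went 3 ways. Sesn2 (chromosome 4, 132492032 to 132510501, minus strand), a known ATF4 and p53 target, stood at 36, 37.1 and 40.4 CPM in control and 37.1, 38.4 and 36.1 CPM in BBR libraries. With oleic acid it was 53.4, 49.6 and 47 CPM in OA and 53.6, 50.3 and 48.8 CPM in BBR+OA libraries. Every library with oleic acid was above every library without it, and benzbromarone left the groups overlapping on either side. The log2 fold change was 0.41 ± 0.066 for OA against control and 0.45 ± 0.056 for BBR+OA against BBR (edgeR adjusted p = 1.77e-05). For benzbromarone it was -0.02 ± 0.062 without and 0.025 ± 0.062 with oleic acid (edgeR adjusted p = 0.841 and 0.873), with 95% intervals of -0.14 to 0.1 and -0.098 to 0.15.

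Sesn3 (chromosome 9, 14275067 to 14333101, plus strand), a known FoxO target, was lower with oleic acid and was the member that benzbromarone changed in loaded cells. It stood at 53.2, 57.8 and 51.5 CPM in control, 26.4, 28 and 24.6 CPM in OA, 55, 51 and 57.4 CPM in BBR and 36.9, 41.3 and 32.6 CPM in BBR+OA libraries. In CPM, control and BBR libraries overlapped, BBR+OA libraries lay below both, and OA libraries lay below BBR+OA. In deposited FPKM, which divide by transcript length, OA libraries (3.74 to 5.35, mean 4.66) overlapped BBR+OA libraries (5.17 to 6.77, mean 5.81). The log2 fold change was -1.04 ± 0.067 for OA against control and -0.56 ± 0.075 for BBR+OA against BBR (edgeR adjusted p = 4.06e-05). BBR+OA against OA gave a 1.41-fold rise, 0.49 ± 0.084 on the log2 scale (edgeR adjusted p = 0.00395), the 302nd highest of 12278 genes, whereas benzbromarone alone gave 0.017 ± 0.06 (edgeR adjusted p = 0.861). The interaction was 0.48 ± 0.11.

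Sesn1 (chromosome 10, 41809935 to 41908424, plus strand), the sestrin best known as a p53 target, did not pass in any comparison. Its values were 8.38, 9.54 and 10.7 CPM in control, 8.43, 8.33 and 9.55 CPM in OA, 10.3, 7.66 and 9.52 CPM in BBR and 8.45, 9.72 and 12.1 CPM in BBR+OA libraries, and all 4 groups overlapped. The log2 fold changes ran from -0.12 for OA against control to 0.19 for BBR+OA against OA, with SE of 0.12 to 0.14, and the edgeR adjusted p of the 3 tested comparisons were 0.477 to 0.825. At 7.66 to 12.1 CPM the intervals were wide, for example -0.29 to 0.2 on the log2 scale for benzbromarone alone.

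Ddit4 (chromosome 10, 59949669 to 59951834, minus strand) was highest with benzbromarone alone. It stood at 57.7, 60.3 and 62.4 CPM in control, 63.4, 72.8 and 65.5 CPM in OA, 85.5, 93.9 and 90.2 CPM in BBR and 62, 68 and 72.4 CPM in BBR+OA libraries. The BBR libraries were above all 9 others, and OA and BBR+OA overlapped. Benzbromarone alone raised Ddit4 1.5-fold, 0.58 ± 0.052 on the log2 scale (edgeR adjusted p = 6.06e-07). OA against control gave 0.17 ± 0.06. In BBR+OA against BBR it fell by 0.41 on the log2 scale (SE 0.058, edgeR adjusted p = 6.1e-05), and in BBR+OA against OA the log2 fold change was 0.00034 ± 0.067 (edgeR adjusted p = 0.998, 95% interval -0.13 to 0.13). The interaction was -0.57 ± 0.088. Cd68 was also highest in the BBR libraries, while the other 9 Kupffer cell markers summed to 27.3 to 35.2 CPM there and 29.8 to 36 CPM in control.

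**Figure D2:**
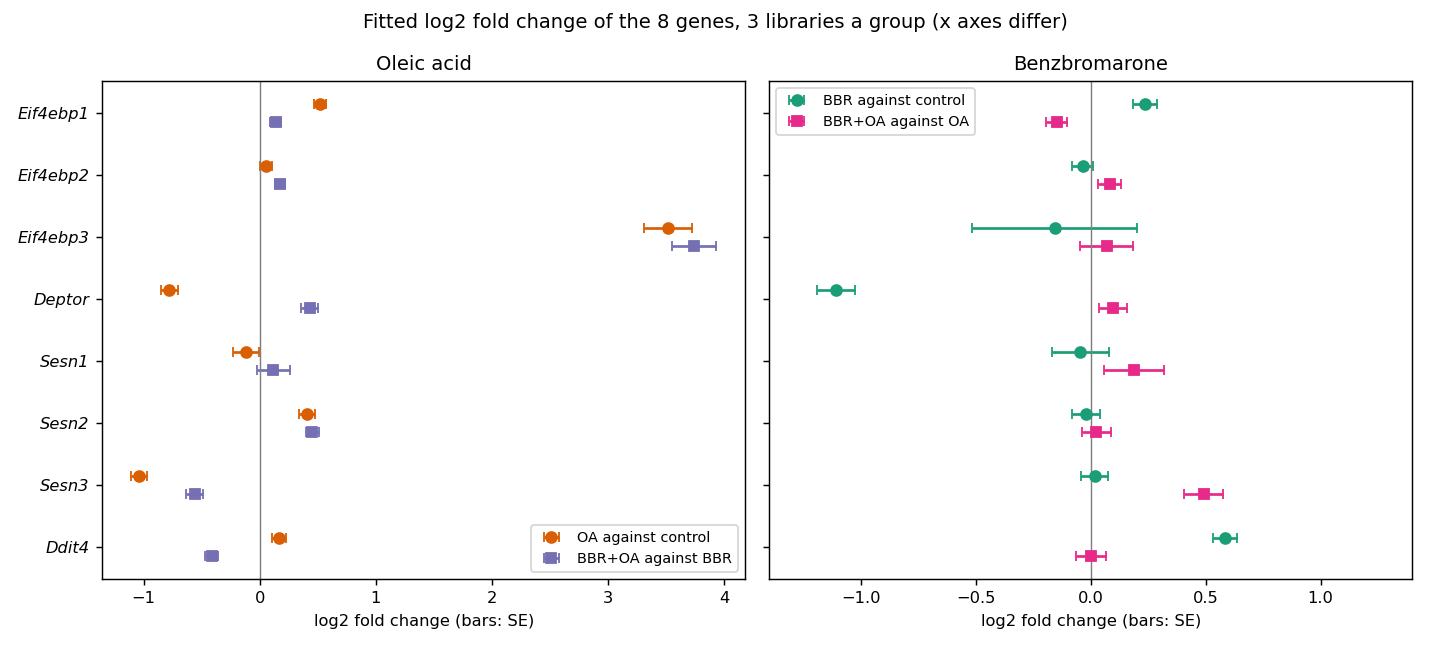
Fitted log2 fold changes (x axis) of the 8 genes (y axis) for oleic acid (left, in control and in BBR-treated cells) and benzbromarone (right, in control and in OA-loaded cells), with SE as bars and 3 libraries in each group; the x axes differ. Eif4ebp3 lay at 3.52 and 3.74 for oleic acid, Deptor at -1.11 for benzbromarone alone and 0.096 in loaded cells, and Sesn3 at 0.017 and 0.49.

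Hypoxia-inducible genes were mostly called in the same direction as Ddit4 in the 2 comparisons that involve cells with BBR alone. Of 15 tested, 13 were higher and 0 lower in BBR against control (median log2 fold change 0.61), and 0 were higher and 10 lower in BBR+OA against BBR (median -0.34), with 8 genes in both sets. Over all genes tested, 13.2% were called higher in the former comparison and 18.8% lower in the latter. Ndrg1, a stress-responsive gene, rose by 1.03 ± 0.076 and Egln3, a prolyl hydroxylase that acts on HIF, by 0.98 ± 0.059 with benzbromarone alone (edgeR adjusted p = 9.61e-08 and 1.68e-08). In BBR+OA against BBR, Pfkfb4, a regulator of glycolysis, fell by 0.98 on the log2 scale (SE 0.23, edgeR adjusted p = 0.00348). The interaction was below 0 for each of the 15 genes (-0.983 to -0.184). It was called negative for 11 and positive for 0, against 5.31% called negative over all genes. In OA against control 11 were higher and 0 lower, and in BBR+OA against OA 1 was higher. Of all genes, 21.3% and 1.95% were called higher there.

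The bases upstream of Ddit4 and Eif4ebp2 are shown because both hold ACGTG, a form of the core letters bound by hypoxia-inducible factors, while Ddit4 moved with benzbromarone and Eif4ebp2 did not pass. They come from RefSeq promoter windows on GRCm38.p6, printed 5′ to 3′ on the strand of the gene (minus for both), with the match in capitals and with bases inside the annotated gene left out. The first is chr10:59951835-59952020 and the second is chr10:61452670-61452919. In Ddit4 the letters lie 187 to 183 bases before the RefSeq start site, on the strand of the gene, and in Eif4ebp2 they lie 182 to 178 bases before it on the opposite strand, so that they read CACGT.
Ddit4: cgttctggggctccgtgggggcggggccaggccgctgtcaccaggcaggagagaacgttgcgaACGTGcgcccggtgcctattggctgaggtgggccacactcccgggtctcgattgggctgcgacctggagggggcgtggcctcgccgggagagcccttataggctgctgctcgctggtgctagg
Eif4ebp2: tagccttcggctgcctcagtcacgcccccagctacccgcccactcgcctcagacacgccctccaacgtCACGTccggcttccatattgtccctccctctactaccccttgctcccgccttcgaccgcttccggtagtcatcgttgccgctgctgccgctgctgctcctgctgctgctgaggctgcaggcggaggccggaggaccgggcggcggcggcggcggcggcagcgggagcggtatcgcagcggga

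These 5 letters are common: 19.6% of all 32851 RefSeq windows of 300 bases hold them on either strand. Other forms of the core were not searched or marked. Windows were given for 5 of the 8 genes (Ddit4, Eif4ebp2, Sesn1, Sesn2 and Sesn3, 6 windows in all). The composite site of ATF4 with C/EBP, searched as TGATGNAA on both strands, was in none of these 6 and in 3.97% of all windows. The FoxO letters GTAAACA were in 1 of them, a Sesn1 window, and in 3.65% of all. A match is a description of the letters and not a binding site.

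Other stress-responsive lists moved with oleic acid. Of 21 genes made up of ATF4 and its targets, 19 were higher and 0 lower in OA against control (median log2 fold change 0.78) and 16 were higher and 1 lower in BBR+OA against BBR (median 0.54), where 21.3% and 20.1% of all genes were called higher. Cth, the cystathionine-cleaving enzyme, rose by 1.28 ± 0.051 and Psat1, an enzyme of serine synthesis, by 1.2 ± 0.044 in BBR+OA against BBR (edgeR adjusted p = 4.12e-10 and 1.88e-10), the comparison in which Sesn2 and Eif4ebp3 also rose. Slc7a11, the cystine transporter, was the 1 that fell, by 0.53 (SE 0.051, edgeR adjusted p = 1.61e-06). Benzbromarone alone called 6 of the 21 higher and 2 lower. With oleic acid present it called 1 higher and 1 lower. Over all genes tested, 13.2% were called higher and 14.5% lower without oleic acid, and 1.95% and 2.63% with it.

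Of 14 p53 targets, 9 were higher and 1 lower in OA against control and 9 higher and 0 lower in BBR+OA against BBR, with Trp53inp1, a p53-induced nuclear protein, up by 0.84 ± 0.042 in the latter (edgeR adjusted p = 2.95e-09). Benzbromarone alone called 1 of the 14 higher and 5 lower, and 0 higher and 3 lower in loaded cells. Over all genes tested, 21.3% were called higher and 21.5% lower in OA against control, and 20.1% and 18.8% in BBR+OA against BBR. The shares were 13.2% and 14.5% with benzbromarone alone, and 1.95% and 2.63% in loaded cells. Of 15 FoxO targets tested, 7 were higher and 5 lower in OA against control and 7 were higher and 7 lower in BBR+OA against BBR, so that the list had no common direction. Fbxo32, a ubiquitin ligase subunit, fell by 1.18 on the log2 scale in the latter comparison (SE 0.16, edgeR adjusted p = 3.85e-05), while Irs2, the insulin receptor substrate, rose by 1.27 ± 0.086 (edgeR adjusted p = 6.04e-08). Benzbromarone alone called 4 of the FoxO targets higher and 4 lower, and 1 was called higher in loaded cells.

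Of 10 glucocorticoid-induced genes, 9 were higher in each oleic acid comparison and 0 lower, beside the same shares over all genes. Benzbromarone alone called 2 of them higher and 6 lower, and 1 was called higher in loaded cells. Over all genes, 13.2% were higher and 14.5% lower with benzbromarone alone, and 1.95% were higher in loaded cells. Sgk1, a kinase of the growth factor pathway, rose by 1.6 ± 0.092 in BBR+OA against BBR (edgeR adjusted p = 1.28e-08), where Ddit4, also known as a glucocorticoid-induced gene, fell.

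Of 6 genes for subunits and assembly factors of mTORC1, 1 passed in OA against control, Mtor itself, with -0.20 ± 0.064 (edgeR adjusted p = 0.0201), and 0 passed in the other comparisons, where 42.8%, 38.9%, 27.7% and 4.59% of all genes were called in OA against control, BBR+OA against BBR, BBR against control and BBR+OA against OA. Values for the list lay between -0.25 and 0.18 on the log2 scale over the 4 comparisons. Of 5 genes for the TSC complex and Rheb, Rheb rose by 0.41 ± 0.047 and Tsc2 fell by 0.40 (SE 0.059) in OA against control (edgeR adjusted p = 9.92e-06 and 8.81e-05), and Tsc1 (0.31 ± 0.068) and Rheb (0.22 ± 0.049) rose with benzbromarone alone (edgeR adjusted p = 0.00249 and 0.0037). In BBR+OA against BBR, Rheb rose by 0.18 ± 0.048 and Tsc2 fell by 0.20 (SE 0.055), with edgeR adjusted p of 0.00942 and 0.0108. None of the 5 passed with benzbromarone in loaded cells.

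The Rag GTPases bring mTORC1 to the lysosome, where the Ragulator subunits anchor them, and folliculin with its partners acts on them. Of 12 such genes tested, 8 were higher and 0 lower with benzbromarone alone (median log2 fold change 0.22, where 13.2% of all genes were called higher), led by Fnip1, a folliculin partner (0.43 ± 0.063, edgeR adjusted p = 7.95e-05), and by Rragd, a Rag GTPase (0.40 ± 0.12, edgeR adjusted p = 0.0158). The list had 5 higher and 2 lower in OA against control, 2 higher and 3 lower in BBR+OA against BBR and 0 called in BBR+OA against OA. Of 14 genes for GATOR, KICSTOR and the amino acid sensors, which sit next to the sestrins in the pathway, 3 were higher and 3 lower in OA against control, 2 higher and 3 lower in BBR+OA against BBR, 1 higher and 1 lower with benzbromarone alone and 1 lower in BBR+OA against OA. Gatsl2 (Castor2), a paralog of the arginine sensor, was the lowest of them in BBR+OA against BBR, with -0.58 ± 0.089 (edgeR adjusted p = 0.000141), and Gatsl3 (Castor1), the arginine sensor, was the 1 that fell with benzbromarone in loaded cells (-0.55 ± 0.13, edgeR adjusted p = 0.027). Of the 4 mTORC2 genes, Rictor, the defining subunit, rose by 0.35 ± 0.055 with benzbromarone alone (edgeR adjusted p = 0.00019) and fell by 0.21 (SE 0.062) in BBR+OA against BBR (edgeR adjusted p = 0.0165). In all, 2 of the 4 rose and 1 fell with benzbromarone alone, 1 rose and 1 fell in BBR+OA against BBR, and 0 passed in either other comparison. Over all genes tested, 42.8% were called in OA against control, 38.9% in BBR+OA against BBR, 27.7% with benzbromarone alone and 4.59% in BBR+OA against OA. The GATOR list was near these shares in both oleic acid comparisons.

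A list of 16 genes covered the cap-binding complex that the 4E-binding proteins restrain, with its kinases and the S6 kinases. In OA against control 7 of them were higher and 1 lower, where 21.3% of all genes were called higher and 21.5% lower. In BBR+OA against BBR 6 were higher and 3 lower, where 20.1% of all genes were called higher and 18.8% lower. Calls in either direction made up 42.8% and 38.9% of all genes in these 2 comparisons. Eif4e, the cap-binding protein itself, rose by 0.48 ± 0.05 in OA against control (edgeR adjusted p = 3.43e-06), where Eif4ebp1 and Eif4ebp3 were also higher. Pdcd4, an inhibitor of the helicase eIF4A, fell in that comparison by 1.02 on the log2 scale (SE 0.1), in BBR+OA against BBR by 0.45 (SE 0.13) and with benzbromarone alone by 0.58 (SE 0.1), with edgeR adjusted p of 2.12e-06, 0.0118 and 0.000389. Mknk2, a kinase of eIF4E, rose by 0.58 ± 0.051 with benzbromarone alone (edgeR adjusted p = 5.49e-07) and by 0.24 ± 0.052 in BBR+OA against OA (edgeR adjusted p = 0.0166). For the list, 2 genes were higher and 2 lower with benzbromarone alone and 1 was higher and 1 lower in BBR+OA against OA. In these comparisons 27.7% and 4.59% of all genes were called in either direction.

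**Figure D3:**
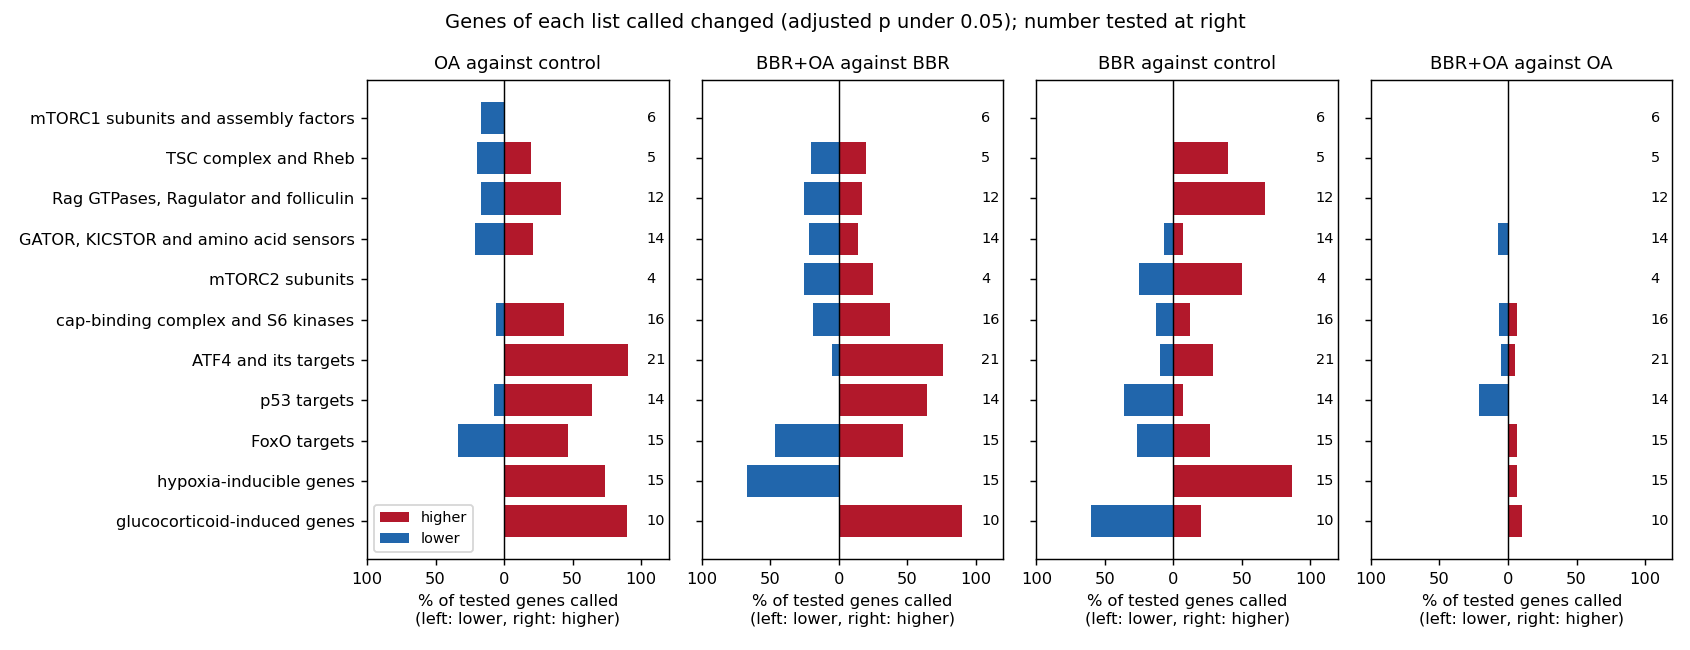
Share of the tested genes of each pathway list (y axis) called higher (red, to the right) or lower (blue, to the left), as a percentage (x axis), in the 4 pairwise comparisons; the number tested stands at the right, and the 8 genes themselves are in none of the lists. Hypoxia-inducible genes were higher with benzbromarone alone (13 of 15) and lower in BBR+OA against BBR (10 of 15), ATF4 targets were higher in both oleic acid comparisons (19 and 16 of 21), and mTORC1 subunits had 1 call in all.

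Levels between genes were compared on the deposited FPKM scale, which divides by transcript length. Eif4ebp1 was highest, with a median over the 12 libraries of 208 FPKM and a range of 164 to 239 FPKM. Eif4ebp2 (median 39.7, range 34.9 to 45.3 FPKM) and Ddit4 (median 37.4, range 33.6 to 53.7 FPKM) came next and overlapped. Sesn2 followed at 12.5 FPKM (10.4 to 15.4). Sesn3 (7.07, range 3.74 to 9.18 FPKM), Deptor (7.01, range 5.43 to 13.4 FPKM) and Eif4ebp3 (6.63, range 0.67 to 15 FPKM) overlapped with each other, and Sesn1 was lowest at 3.17 FPKM (2.59 to 4.22). The place of Eif4ebp3 depended on the group: it averaged 1.14 ± 0.48 FPKM in control and 0.963 ± 0.21 FPKM in BBR (SD, n = 3), below every other member, but 12.6 ± 1.3 FPKM in OA and 13.2 ± 1.6 FPKM in BBR+OA, near Sesn2 at 14.3 ± 1 and 14.5 ± 0.76 FPKM. In absolute terms the eIF4E-binding protein that moved most stayed far below Eif4ebp1, which averaged 237 ± 1.9 FPKM in OA. Dividing CPM by the exon length of the reference annotation instead left 4 of the 8 genes at the same rank, with Ddit4 above Eif4ebp2 and with Eif4ebp3 above Deptor and Sesn3.

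**Figure D4:**
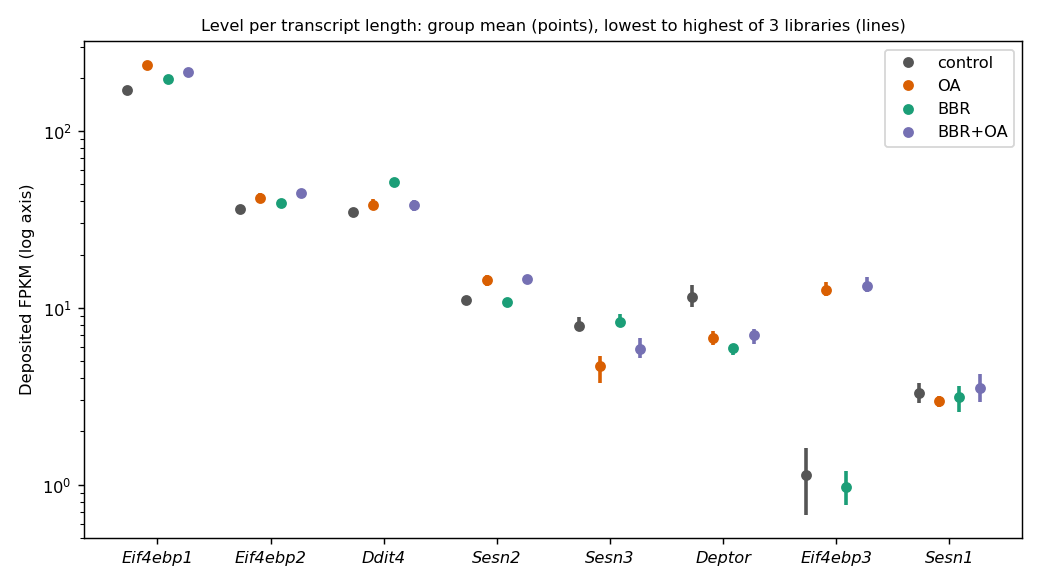
Deposited FPKM (y axis, log scale) of the 8 genes, ordered by their median over the 12 libraries, in control, OA, BBR and BBR+OA hepatocytes; points are group means and lines run from the lowest to the highest of 3 libraries. Eif4ebp1 lay at 164 to 239 FPKM, and Eif4ebp3 spanned 0.67 to 15 FPKM, with its OA and BBR+OA values beside those of Sesn2.

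The estimated count and the FPKM of a gene in 1 library together imply the transcript length that was used for it, and for genes with several transcripts that length can differ between libraries. It was constant for Eif4ebp1 (1997 bases) and Ddit4 (1755 bases), and within 2 bases for Sesn2 (3474 to 3476). For Eif4ebp2 it was 3667 to 3916 bases in control, 3259 to 3393 in OA, 3282 to 3597 in BBR and 3272 to 3359 in BBR+OA libraries, so that every control library lay above all 9 treated libraries. Its coefficient of variation over the 12 libraries was 6.57%, where 8959 genes with at least 100 counts and 1 FPKM in every library had a median of 0.604%. Because of this, the FPKM of Eif4ebp2 averaged 36.4 ± 1.4 in control and 39.1 ± 0.93 in BBR (SD, n = 3), while its CPM averaged 136 ± 4.2 and 132 ± 4.4, so that the direction differed between the scales. Sesn3 had 6566 to 7379 bases in control and 5207 to 6454 in OA libraries, which did not overlap, while BBR (6262 to 6942) and BBR+OA (6011 to 6718) overlapped both. Deptor ranged from 6077 to 8552 bases, and all its groups overlapped. This length was looked at after the values were known and was not tested. It is an average set by the estimation of transcript shares and does not name a transcript.

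**Figure D5:**
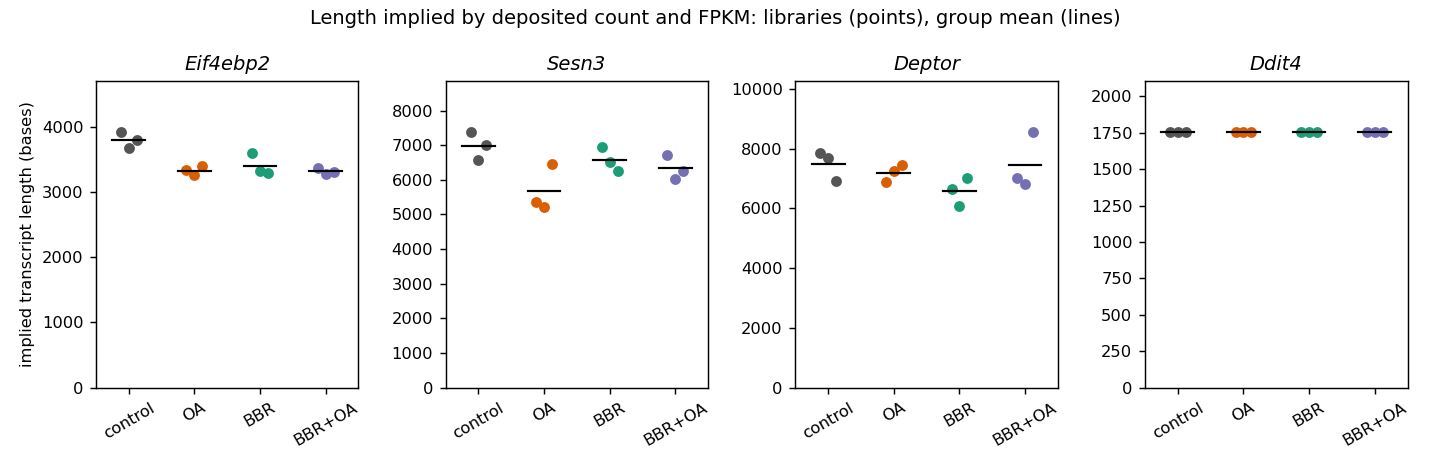
Transcript length in bases (y axis, from 0) implied by the estimated count and FPKM of Eif4ebp2, Sesn3, Deptor and Ddit4 in each library (points), with the group mean as a line, for control, OA, BBR and BBR+OA hepatocytes. The 3 control libraries of Eif4ebp2 lay at 3667 to 3916 bases, above the treated libraries at 3259 to 3597 bases, while Ddit4 stayed at 1755 bases in all 12 libraries.

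For each member the 3 genes with the most alike levels over the 12 libraries were found among 12400 genes by Pearson's r of log2 CPM. The libraries share 4 conditions, so that these values describe group patterns and carry no p-value. Ddit4 was most like Vegfa (r = 0.988), the vascular growth factor on the hypoxia list, followed by Bnip3l (0.978), a mitophagy receptor, and Tgoln1 (0.967). Eif4ebp3 was most like Mpc2 (0.992), a subunit of the mitochondrial pyruvate carrier, Serpina3k (0.992), a secreted serpin, and Psat1 (0.991), which is on the ATF4 list. Sesn2 was most like Rock2 (0.972), a kinase of the cytoskeleton, Serp1 (0.97) and S100a10 (0.967).

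Eif4ebp1 was most like Msmo1 (0.977), an enzyme of cholesterol synthesis, Stx7 (0.974) and Dnajc21 (0.971). Sesn3 was most like Man2b1 (0.977), a lysosomal mannosidase, Pja2 (0.971) and Ank3 (0.969). Deptor was most like Stat5b (0.96), the growth hormone signal transducer, Tbcel (0.958) and Fam234a (0.958). Eif4ebp2 and Sesn1, whose levels moved little, had the lowest leading values, with Cyr61 (0.949), Slc25a22 (0.931) and Crybg1 (0.93) for Eif4ebp2 and Mat2b (0.877), Mpst (0.834) and Kif2c (0.8) for Sesn1.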

How the data were processed

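Poly(A) RNA of 12 cultures was sequenced on an Illumina platform. Per the file headers, the authors deposited for each library an estimated count and an FPKM value per gene. The submitters' processing notes name the build mm10, and the aligner, counter, annotation and strand setting are not given in the sources used here. Estimated counts were rounded (2862 features held a fractional count in some library). In R 4.3.3, edgeR 4.0.16 (TMM scaling, filterByExpr with a minimum count of 10, quasi-likelihood F test) was fitted to the 6 libraries of each comparison and, for the interaction (BBR+OA minus OA, less BBR minus control), to all 12, with Benjamini-Hochberg adjustment over all genes tested. SE is the absolute log2 fold change divided by the square root of F, and 95% intervals use the normal quantile. With so few libraries these intervals are narrower than those the F test implies. On simulated counts the fit was tested before use. The 12 pairs of same-group libraries differed by 2.77 to 7.61 times the chi-square of counting noise, so that none counted as a duplicate. Gene positions are from GENCODE M21 (GRCm38), which held 99.71% of the 21911 Ensembl gene IDs. Promoter letters are from RefSeq, with build GRCm38.p6.

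The members and the gene lists were chosen with earlier results of these data known. The text names the 8 members, the 3 genes most like each (Pearson's r of log2 CPM, prior count 2) and, of a pathway list, genes among the at most 2 largest rises and 2 largest falls called in a comparison. Alternatives were other scalings, no filter, DESeq2 1.42.0, 1 fit over all 12 libraries, the replicate number as a block, each library left out, and a fold minimum of 1 on the log2 scale. Intervals cover the spread between these libraries, and counts of single genes carry counting error as well.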

Additional observations from a re-analysis of the deposited data

Results flagged for a closer look

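For 4 of the 8 genes the interaction term, the effect of benzbromarone with oleic acid less its effect without, was larger in size than for the other members. It was taken from the fit to all 12 libraries. The term contains OA against control, the comparison in view when the genes were chosen, so the values are a description and no p-value is given. Deptor had an interaction of 1.22 on the log2 scale: benzbromarone gave -1.11 without oleic acid and 0.096 with it. Ddit4 had -0.57, with 0.58 without and 0.00034 with oleic acid. Sesn3 had 0.48, with 0.017 without and 0.49 with oleic acid. Eif4ebp1 had -0.37, with 0.24 without and -0.15 with oleic acid.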

How the results depend on the processing

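Of 520 recomputed log2 fold changes of the 8 genes, 496 counted as unchanged. In most comparisons that meant the same direction and the same side of the threshold. For OA against control no threshold was used, and it meant the same direction and a shift within 1 within-group SD. Requiring a log2 fold change of at least 1 as well left 1 member called in BBR+OA against BBR (Eif4ebp3), 1 in BBR against control (Deptor) and 0 in BBR+OA against OA, against 7, 3 and 1. The genes called among all tested in the same order of comparisons were then 550, 276 and 31, against 4826, 3484 and 563. In the interaction they were 161 against 1551. The labels do not say that replicate numbers pair the samples. The deviations of same-numbered libraries correlated at 0.0234 to 0.155, over 0.1 in 2 of 12 pairs, and the own number correlated best in 11. Same-numbered libraries were thus slightly alike, and what they share is not known. The fits without the block were kept as the main results, so that calls in BBR+OA against OA depend on that choice. With the replicate block, 2 members were called in BBR+OA against OA, with Eif4ebp1 added (-0.15, adjusted p = 0.0138), and 1333 genes in place of 563. Leaving out 1 library gave 6 to 7 members called in BBR+OA against BBR, 3 in BBR against control each time and 1 in BBR+OA against OA each time. It gave 216 to 632 genes in BBR+OA against OA (249 without OA library 2, and 230 and 216 without BBR+OA libraries 2 and 3) and 1027 to 1680 in the interaction (1027 without OA library 2). Values near 0 that did not pass changed sign when a library was left out: Sesn1 (-0.026 to 0.23) in BBR+OA against BBR; Eif4ebp3 (-0.43 to 0.14), Sesn1 (-0.14 to 0.058), Sesn2 (-0.053 to 0.032) and Sesn3 (-0.0201 to 0.0645) in BBR against control; Eif4ebp3 (-0.032 to 0.15), Sesn2 (-0.015 to 0.075) and Ddit4 (-0.0484 to 0.0604) in BBR+OA against OA; and Eif4ebp3 (-0.058 to 0.49) and Sesn2 (-0.0033 to 0.105) in the interaction. Without the filter Ddit4 was -0.0025 in BBR+OA against OA. By exon length 4 of 8 genes kept their rank. The cause of these shifts was not tested. A level under 3 counts, 0.127 to 0.194 CPM, could not be told from 0.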

Other observations

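Over the 12 libraries, Pearson's r of log2 CPM between members was 0.958 for Eif4ebp3 with Sesn2, -0.893 for Eif4ebp3 with Sesn3 and -0.818 for Deptor with Ddit4, and it lay between -0.189 and 0.294 for Sesn1 with each other member. The libraries share 4 conditions, so that these values describe group patterns.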
